A study of Homo sapiens with 8 samples.

Results

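The SR and hnRNP splicing regulators studied here were a list of 42 genes, of 60675 genes in the count files, and the rule for membership was the gene symbol and no measured value. They comprised the 12 SRSF genes (SRSF1 to SRSF12), 5 TRA2 and SR-related genes, and 25 hnRNP, PTBP and PCBP genes. All 42 were matched to an Ensembl identifier. SRSF12 had 1 read over the 8 libraries and could not be tested, so 41 members entered the comparisons.

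SR proteins carry RNA recognition motifs and a stretch rich in arginine and serine. They bind exonic enhancers, help the early spliceosome to recognise an exon, and are phosphorylated by the SRPK and CLK kinases. The hnRNPs, with the related polypyrimidine-tract binding (PTBP) and poly(C)-binding (PCBP) proteins, coat nascent RNA and often repress the exons that SR proteins promote, and many genes of both families limit their own output by splicing in poison exons that send the transcript to nonsense-mediated decay.

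RNA was sequenced from the pancreatic cancer line Panc10.05, a long-established human cell line, and from an indisulam-resistant derivative raised by culture in increasing drug concentrations. Whether this derivative is a clone is not stated in the sources used here. Indisulam is a sulfonamide that acts as a molecular glue between RBM39, an arginine-serine rich splicing cofactor, and the DCAF15 ubiquitin ligase receptor, after which RBM39 protein is degraded. The comparisons ask how the drug acts on each line and how the lines differ. Parental untreated cells had no drug, whereas parental indisulam cells had 2 µM for 18 h. Resistant indisulam cells were kept on 2 µM without a break, and resistant untreated cells were the same derivative after a drug holiday. Each group had 2 libraries, which the study calls technical replicates, so every p-value below measures the spread between these libraries. The labels name Panc10.05 in their titles but A549, a lung line, in their growth and treatment notes, and the titles were followed.

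Reads in genes ranged from 65266253 to 108002436 per library, and these totals bound counting error only. The pancreatic ductal markers KRT7, KRT8, KRT18 and KRT19 were between 330 and 4760 CPM in every group mean (CPM, the TMM-scaled share of reads that sets libraries of unequal depth on the same footing), with EPCAM and CDH1 between 170 and 464 CPM and MUC1 at most 18.4 CPM. Of these 7 markers KRT7, KRT8, KRT18, KRT19, CDH1 and MUC1 were called higher in resistant cells off and on the drug, by between 0.36 and 2.2 log2 units, while EPCAM was at 0.10 off the drug and -0.10 on it. Their part in the results below was not tested. The leukocyte, fibroblast, endothelial and lung markers had at most 0.331 CPM in any group mean, apart from the fibroblast marker COL1A1, with 1.44 to 1.59 CPM in 3 groups and 3.92 CPM in resistant indisulam cells (a rise of 1.31 on the drug there). At these low levels the lung marker NAPSA was lower in parental indisulam cells (0.0263 against 0.162 CPM) and CD14 was higher in resistant than in parental cells on the drug (0.331 against 0.105 CPM). NKX2-1, SFTPB, PTPRC and CD3E were at 0 in every library. A lower CPM in such bulk libraries cannot tell fewer expressing cells from less RNA per cell.

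Next, the levels of the members were compared per length, as CPM per kilobase of merged exons. The members were abundant transcripts, with a median mean level of 269 CPM over the 41 tested against 12.9 CPM over all 16661 genes tested. Per length the highest mean levels over all libraries were those of HNRNPAB (232 CPM per kilobase), PCBP1 (204), HNRNPA1 (193), HNRNPK (191) and SRSF2 (121). At the low end stood HNRNPLL (6.37 CPM per kilobase), SRSF4 (7.88), SRSF10 (11.6) and HNRNPUL2 (11.9), while SRSF12 was at 0 in 7 of 8 libraries. The order depended on the length used. By the canonical transcript alone, HNRNPA2B1 came to the top with 394 CPM per kilobase, ahead of HNRNPK (377) and HNRNPA1 (344), and the median member rose from 44.6 to 95.9 CPM per kilobase.

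**Figure D1:**
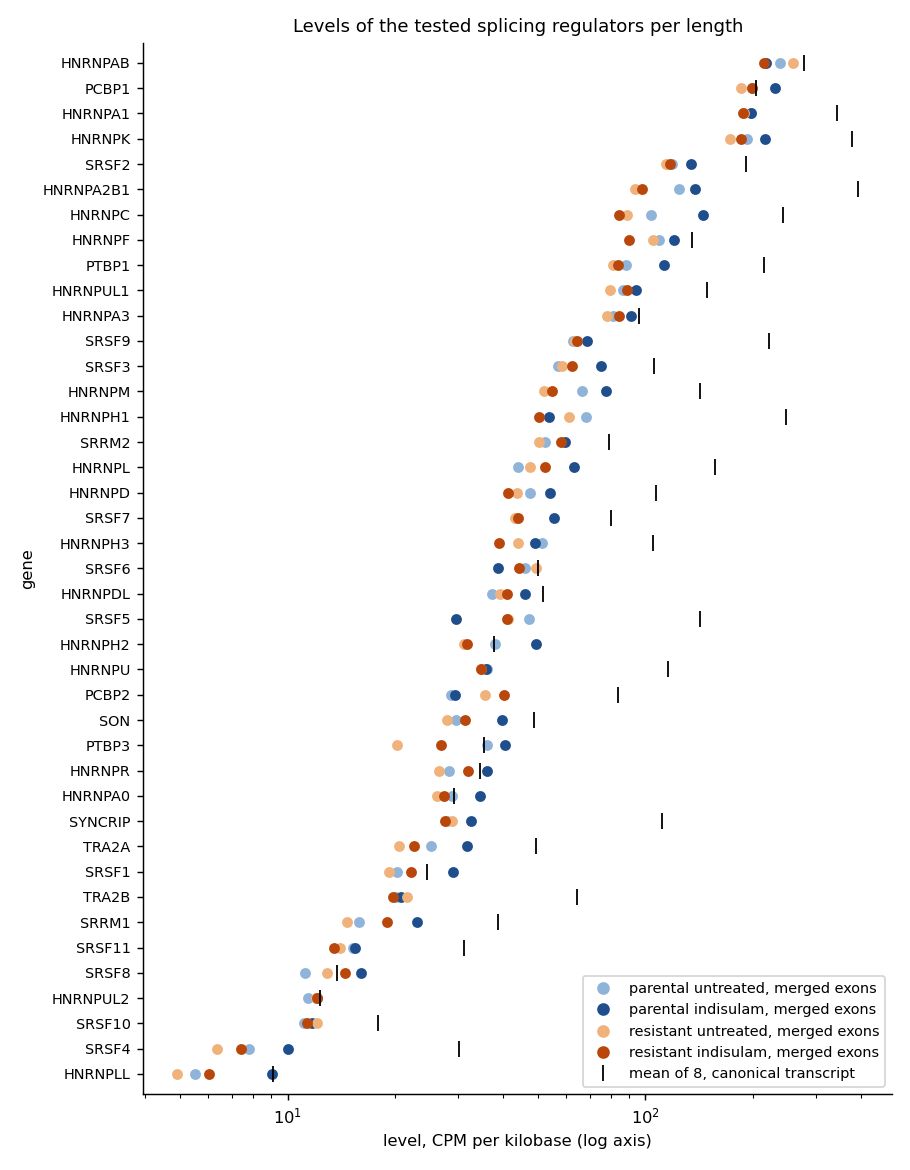
Level of each of the 41 tested splicing regulators in CPM per kilobase on a log axis. Circles are group means of 2 libraries over merged exons, coloured by group, and vertical ticks are the mean of all 8 libraries over the canonical transcript. The circles of a gene lie close together against the span between genes, from 6.37 for HNRNPLL to 232 for HNRNPAB over all libraries, and the ticks reorder the top of the list.

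The values in every library follow for the members at the ends of this order. HNRNPA1, which binds UAG motifs and antagonises SRSF1 at many exons, had 1299 and 1340 CPM in the parental untreated libraries, 1296 and 1337 CPM in parental indisulam, 1272 and 1252 CPM in resistant untreated and 1260 and 1260 CPM in resistant indisulam. HNRNPK, a KH-domain protein that binds C-rich RNA, had 1092 and 1092 CPM in parental untreated, 1231 and 1235 CPM in parental indisulam, 996 and 965 CPM in resistant untreated and 1042 and 1062 CPM in resistant indisulam libraries. PCBP1, its intronless relative, had 344 and 344 CPM, 404 and 394 CPM, 322 and 316 CPM, and 347 and 341 CPM in the same order of groups. HNRNPA1 drug pairs overlapped in both lines, whereas the parental pairs of HNRNPK and PCBP1 were apart. SRSF2, a promoter of exon inclusion that also acts in transcription elongation, had 351 and 359 CPM in parental untreated, 400 and 395 CPM in parental indisulam, 331 and 345 CPM in resistant untreated and 352 and 344 CPM in resistant indisulam libraries. At the low end, SRSF4 had 68.6 and 68.5 CPM, 86.5 and 90.1 CPM, 55.1 and 56.6 CPM, and 65.6 and 64.3 CPM in the same order. HNRNPUL2, an RNA-binding protein linked to DNA repair, had 62.4 and 60.9 CPM, 61.8 and 68.7 CPM, 67.7 and 62.3 CPM, and 63.9 and 66.9 CPM, and its groups overlapped in every comparison.

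Over all members the summed level in TMM-scaled CPM was higher with the drug, by more in parental than in resistant cells. It was 15760 and 15907 CPM in parental untreated libraries, 17542 and 17861 CPM in parental indisulam, 14599 and 14677 CPM in resistant untreated and 14928 and 15048 CPM in resistant indisulam. The groups did not overlap, parental indisulam being the highest and resistant untreated the lowest. Of the 41 tested members, 30 had their highest group mean in parental indisulam and 20 their lowest in resistant untreated cells. These counts were not made over other genes. Of the genes with a mean of at least 30 CPM, 56.1% were higher in parental indisulam than in parental untreated cells (adjusted p under 0.05, edgeR). The members took between 1.45% and 1.72% of the reads in genes.

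To study the response of the parental line, indisulam-treated cells were compared with untreated cells. Indisulam raised most of the splicing regulators by a modest amount and lowered 4 of them, SRSF5 by the most. Of 41 members, 29 were called higher, 4 lower and 8 were not called (edgeR quasi-likelihood test, Benjamini-Hochberg adjusted p under 0.05), which is 33 called. Over all genes tested 58.2% were called, 31.6% higher and 26.6% lower. Abundant genes are called more often, and of the 6208 genes with a mean of at least 30 CPM, 77.6% were called, 56.1% higher and 21.5% lower. The median log2 fold change was 0.18 over the members, 0.11 over the genes of at least 30 CPM and 0.01 over all genes. Against the null of a change of at most 0.5 log2 units, 2 members were called, HNRNPLL and SRSF5. The 33 called members included 31 that passed in every other alternative, and the 2 exceptions were SRSF10 and HNRNPUL1.

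**Figure D2:**
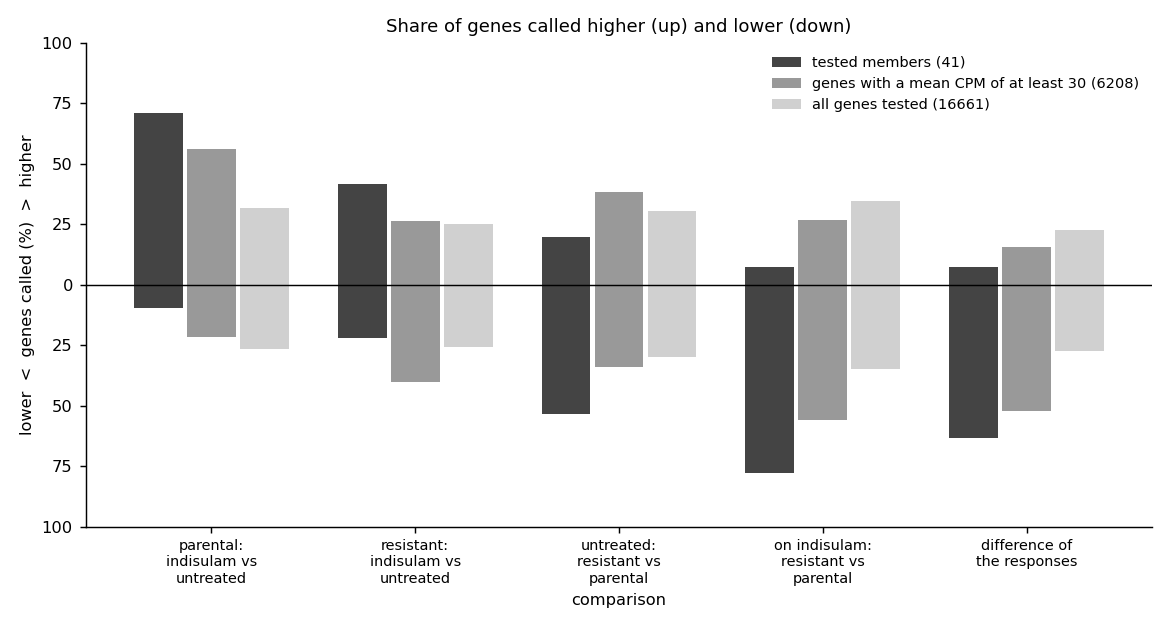
Percent of genes called higher (bars up) and lower (bars down) in each of the 5 comparisons, for the 41 tested splicing regulators, the 6208 genes with a mean of at least 30 CPM and all 16661 genes tested. In parental cells given indisulam 29 of 41 members were higher, against 56.1% of abundant genes, and on the drug 32 of 41 members were lower in resistant than in parental cells, against 56.1% of abundant genes.

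Among the SRSF proteins 8 of 11 tested rose and 2 fell. SRSF1, a founding SR protein that promotes exon inclusion, rose by 0.52 on the log2 scale, from 117 ± 1.08 to 167 ± 3.13 CPM (SD, n = 2). SRSF8, an intronless retrocopy related to SRSF2, rose by 0.51, and SRSF3, the smallest SR protein, by 0.40. SRSF4, SRSF7, SRSF2 and SRSF9 rose by between 0.13 and 0.37. The call of SRSF10, a splicing repressor when dephosphorylated, was not stable. It rose by 0.07 (adjusted p = 0.031, edgeR), a call that was lost without any single library of the 8, with adjusted p between 0.10 and 0.31.

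SRSF5 was the member with the largest fall. This SR protein promotes exon inclusion and shuttles between nucleus and cytoplasm. SRSF5 had 252 and 256 CPM in the parental untreated libraries and 159 and 157 CPM in the parental indisulam libraries, and 212 and 229 CPM in resistant untreated and 222 and 216 CPM in resistant indisulam libraries. The parental indisulam libraries were far below the other 6, and the resistant pairs overlapped. The fold change in parental cells was 0.624, or -0.68 ± 0.032 on the log2 scale (SE), with an adjusted p of 1.3e-13 by edgeR. SRSF6, an SR protein with paired RNA recognition motifs, had 224 and 227 CPM in parental untreated, 189 and 189 CPM in parental indisulam, 237 and 248 CPM in resistant untreated and 216 and 217 CPM in resistant indisulam libraries. It fell by 0.26 ± 0.028 in the parental line (adjusted p = 5.5e-08, edgeR) and no libraries overlapped between treated and untreated cells of either line. SRSF11, an SR protein that interacts with U2AF, had a log2 fold change of 0.02 and was not called.

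TRA2 and SR-related members rose or did not pass. SRRM1, a splicing coactivator found in nuclear speckles, had 124 and 129 CPM in parental untreated, 190 and 177 CPM in parental indisulam, 116 and 117 CPM in resistant untreated and 153 and 149 CPM in resistant indisulam libraries. Treated libraries were above untreated ones in both lines. The parental rise was 0.54 ± 0.033 (adjusted p = 7.2e-12, edgeR). SON, a scaffold of nuclear speckles, rose by 0.43 and TRA2A, a sequence-specific activator of exon inclusion, by 0.33, whereas its paralog TRA2B had 0.04 and was not called. SRRM2, the other speckle scaffold, had the largest SE of any tested member, with 670 and 689 CPM in parental untreated, 725 and 817 CPM in parental indisulam, 611 and 695 CPM in resistant untreated and 752 and 753 CPM in resistant indisulam libraries. Its log2 fold change of 0.18 ± 0.083 did not pass in parental cells (adjusted p = 0.12, edgeR), although 6 of 14 alternatives called it higher.

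In the hnRNP A/B and D group 5 of 7 rose, HNRNPAB fell and HNRNPA1 was not called. HNRNPDL and HNRNPA0 rose by 0.31 and 0.27, and HNRNPD, also known as AUF1 for its binding to AU-rich elements, by 0.18. HNRNPAB had 507 and 503 CPM in parental untreated, 450 and 474 CPM in parental indisulam, 557 and 534 CPM in resistant untreated and 458 and 453 CPM in resistant indisulam libraries. Its treated libraries were below the untreated ones in each line, and the parental change was -0.13 ± 0.030 (adjusted p = 0.00082, edgeR). The 4 genes HNRNPC, HNRNPM, HNRNPR and SYNCRIP (hnRNP Q) all rose, by between 0.22 and 0.47.

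HNRNPC, which binds U-rich tracts and guards against use of cryptic splice sites, showed the largest rise of these 4. HNRNPC had 760 and 761 CPM in parental untreated libraries, 1042 and 1069 CPM in parental indisulam, 661 and 633 CPM in resistant untreated and 611 and 622 CPM in resistant indisulam. Parental indisulam libraries stood above all others. The parental rise was 0.47 ± 0.029 on the log2 scale, a fold change of 1.39 (adjusted p = 4e-12, edgeR).

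The hnRNP F/H proteins, which bind runs of G, did not move as a group. HNRNPH1 had 641 and 649 CPM in parental untreated, 499 and 521 CPM in parental indisulam, 570 and 592 CPM in resistant untreated and 480 and 478 CPM in resistant indisulam libraries. It was lower on the drug in both lines without overlap, by -0.34 ± 0.029 in parental cells (adjusted p = 1.2e-09, edgeR). Its close paralog HNRNPH2 went the other way in parental cells, with 88.0 and 86.4 CPM untreated and 114 and 114 CPM treated, a rise of 0.39 ± 0.030. In resistant cells HNRNPH2 had 72.0 and 71.3 CPM untreated and 71.7 and 74.4 CPM on the drug, and these pairs overlapped. HNRNPF rose by 0.14 and HNRNPH3 had -0.06, which was not called.

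The 3 members of the hnRNP K and PCBP group, which bind C-rich RNA, had a median of 0.18 in parental cells, as did all members. PCBP1 rose by 0.21 and HNRNPK by 0.18, while PCBP2, a poly(C)-binding protein that also acts in mRNA stability and translation, had 0.04 and was not called. All 4 genes of the hnRNP L and PTBP group rose. HNRNPLL, a regulator of CD45 splicing in lymphocytes and the least abundant tested member, showed the largest fold change of all members. HNRNPLL had 33.0 and 32.5 CPM in parental untreated, 52.7 and 54.3 CPM in parental indisulam, 30 and 28.2 CPM in resistant untreated and 34.4 and 37.1 CPM in resistant indisulam libraries. Its treated libraries were above the untreated ones in each line, with a fold change in parental cells of 1.63, or 0.71 ± 0.039 on the log2 scale (adjusted p = 8.8e-13, edgeR).

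HNRNPL, its more abundant paralog that binds CA repeats, had 283 and 287 CPM in parental untreated, 411 and 411 CPM in parental indisulam, 312 and 306 CPM in resistant untreated and 341 and 339 CPM in resistant indisulam libraries. Here too the drug pairs did not overlap in either line, and the parental rise was 0.53 ± 0.027 (adjusted p = 2e-13, edgeR). PTBP1, a repressor of many tissue-specific exons, rose by 0.35 and PTBP3 by 0.16. Of the hnRNP U genes, HNRNPUL1 rose by 0.12 and HNRNPU, which binds chromatin and RNA, was not called (-0.01). The call of HNRNPUL1 was lost with library totals alone as the scaling.

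**Figure D3:**
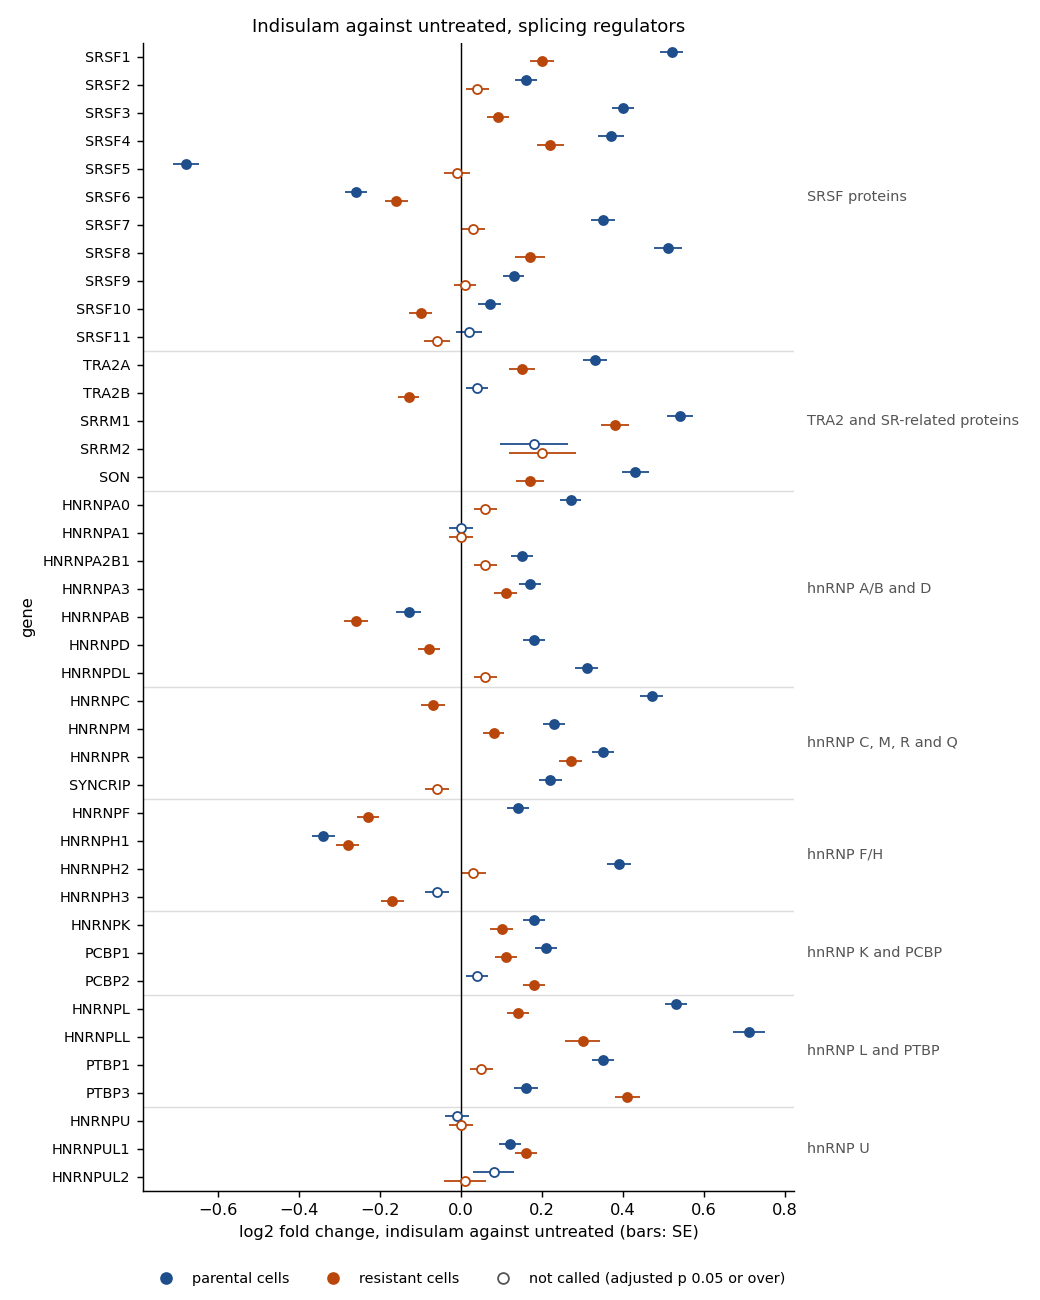
log2 fold change with SE of each tested splicing regulator, indisulam against untreated, in parental (blue) and resistant (orange) cells, grouped by family. Open circles did not pass an adjusted p of 0.05. SRSF5 stands alone at -0.68 in parental cells, HNRNPLL is highest at 0.71, and most orange points lie nearer to 0 than the blue point of the same gene.

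Next, the drug response of the resistant line was examined. With TMM scaling fewer members were called than in parental cells, and the median change was smaller. PTBP3, SRRM1 and HNRNPLL rose the most, and HNRNPH1, HNRNPAB and HNRNPF fell the most. Of 41 members 17 were called higher, 9 lower and 15 were not called, so that 26 were called against 50.7% of all genes (24.9% higher and 25.8% lower) and 66.4% of the genes of at least 30 CPM (26.2% higher and 40.2% lower). With library totals alone as the scaling 30 were called, 24 higher and 6 lower, against 34 in parental cells. The median of the members was then 0.112, against 0.116 in parental cells. With DESeq2 size factors it was 0.059 against 0.19. The smaller median response thus depended on the scaling. No member passed 0.5 log2 units. Against that null (edgeR glmTreat) 0 members were called and 0 had an unadjusted p under 0.05, whereas at a null of no change edgeR and DESeq2 each called 26. The median change was 0.06 over members and -0.04 over the genes of at least 30 CPM. Of the 26 calls 19 held in every other alternative, and the 7 that did not (SRSF3, SRSF10, HNRNPA3, HNRNPD, HNRNPC, HNRNPM and HNRNPK) were all at most 0.11 in size.

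PTBP3, a paralog of PTBP1 first known from blood cells, was the member with the largest rise in resistant cells. It had 164 and 169 CPM in resistant untreated and 216 and 227 CPM in resistant indisulam libraries, and 292 and 302 CPM in parental untreated and 330 and 335 CPM in parental indisulam libraries. The 4 groups were apart, with both resistant groups below both parental groups. The rise on the drug was 0.41 ± 0.031 in resistant cells (adjusted p = 9.6e-11, edgeR). SRRM1 rose by 0.38 ± 0.034 (adjusted p = 2.9e-09, edgeR) and HNRNPLL by 0.30 ± 0.043 (adjusted p = 3e-06, edgeR). HNRNPR, a relative of SYNCRIP, rose by 0.27, SRSF4 by 0.22 and SRSF1 by 0.20.

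The falls in resistant cells were smaller than that of SRSF5 in parental cells. HNRNPH1 fell by 0.28 ± 0.029 (adjusted p = 2.9e-08, edgeR) and HNRNPAB by 0.26 ± 0.030 (adjusted p = 1.2e-07, edgeR). HNRNPF had 350 and 338 CPM in resistant untreated and 294 and 294 CPM in resistant indisulam libraries, against 356 and 356 CPM in parental untreated and 389 and 397 CPM in parental indisulam. It fell by 0.23 ± 0.028 in resistant cells (adjusted p = 3.1e-07, edgeR) and rose in parental cells, with no overlap of the drug pairs in either line. HNRNPH3, SRSF6 and TRA2B fell by 0.17, 0.16 and 0.13. SRSF5 had a log2 fold change of -0.01 ± 0.032 (adjusted p = 0.85, edgeR). SRRM2 was at 0.20 ± 0.083 and not called (adjusted p = 0.10, edgeR), but it passed in 6 of 14 alternatives, among them the fit without resistant untreated replicate 2 (0.29, adjusted p = 0.003).

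Set side by side, the calls of the 2 lines fell into a few classes. These classes were not counted over other genes, so they are not read as a trait of the members. Of the genes of at least 30 CPM, 77.6% were called in parental and 66.4% in resistant cells. There were 16 members higher on the drug in both lines, among them SRSF1, SRRM1, HNRNPL, HNRNPLL and PTBP3, and 3 lower in both, SRSF6, HNRNPAB and HNRNPH1. Another 9 were higher in parental cells and not called in resistant cells, and these included SRSF2, SRSF7, HNRNPH2 and PTBP1. SRSF10, HNRNPD, HNRNPC and HNRNPF were called higher in parental and lower in resistant cells. Of these 4, HNRNPF kept both calls in every alternative other than the test against 0.5 log2 units. HNRNPD had 333 and 335 CPM in parental untreated, 377 and 382 CPM in parental indisulam, 306 and 307 CPM in resistant untreated and 287 and 293 CPM in resistant indisulam libraries, and its fall of 0.08 in resistant cells was lost without resistant indisulam replicate 1 (adjusted p = 0.082, edgeR) and with library totals alone (adjusted p = 0.27). The fall of HNRNPC in resistant cells (-0.07, adjusted p = 0.048, edgeR) was lost in 10 of 14 alternatives, among them the fits without each library other than resistant untreated replicate 2, with adjusted p between 0.052 and 0.41. PCBP2 was called higher in resistant cells alone, with 0.18 against 0.04 in parental cells, and 5 members (SRSF11, SRRM2, HNRNPA1, HNRNPU and HNRNPUL2) were called in neither line. These 2 responses share no libraries, and over the 41 members their Pearson r was 0.59, against 0.39 over the genes of at least 30 CPM. The genes share libraries and scaling and are not independent replicates.

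To compare the responses directly, the difference of the log2 fold changes (resistant minus parental) was tested. The parental response is 18 h of drug against no drug, and the resistant one is unbroken drug against a drug holiday. Line, length of exposure and drug holiday cannot be told apart in this difference. The signed difference was negative for most members, and SRSF5, PTBP3 and PCBP2 were the members called positive. Its sign does not give the size of a response. SRSF5 fell in parental cells (-0.68) and hardly changed in resistant cells (-0.01). HNRNPAB, called negative, fell more in resistant cells (-0.26 against -0.13). Of 41 members 26 were called lower, 3 higher and 12 were not called, so 29 were called, against 50.1% of all genes (22.7% higher and 27.5% lower) and 67.8% of genes of at least 30 CPM (15.5% higher and 52.4% lower). The median difference was -0.15 over the members and -0.13 over the genes of at least 30 CPM, so the members lay close to other abundant genes. With library totals alone the calls were 8 higher and 14 lower, and the median of all genes moved from 0.01 to 0.125 with it, while that of the members moved to -0.034. Against a null of 0.5 log2 units SRSF5 alone was called. With TMM scaling the absolute response was larger in parental cells for 31 of 41 members. Of the 29 members raised in parental cells 23 were called lower in this difference. That outcome is favoured by the choice, since the 29 were picked by the parental response that the difference subtracts. Neither count was made over other genes.

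SRSF5 had a difference of 0.67 ± 0.045 (adjusted p = 1.1e-10, edgeR) and PTBP3 one of 0.25 ± 0.043 (adjusted p = 4.1e-05, edgeR). PCBP2 differed by 0.14 ± 0.038 (adjusted p = 0.0033, edgeR). At the other end HNRNPC differed by -0.54 ± 0.041 (adjusted p = 3.8e-10, edgeR), HNRNPLL by -0.41 ± 0.058 (adjusted p = 3.5e-06, edgeR) and HNRNPL by -0.39 ± 0.038 (adjusted p = 1.9e-08, edgeR). Of the members lowered in both lines, HNRNPH1 was at 0.06 and SRSF6 at 0.09, and neither was called. With library totals alone both were called higher, at 0.17 (adjusted p = 0.00095, edgeR) and 0.21 (adjusted p = 0.00021, edgeR), and SRSF6 also passed with no filter (0.12) and without resistant untreated replicate 2 (0.14). Of the 29 calls 17 held in every alternative other than the test against 0.5 log2 units, and with library totals alone the called values of HNRNPH3 and PCBP1 changed sign.

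**Figure D4:**
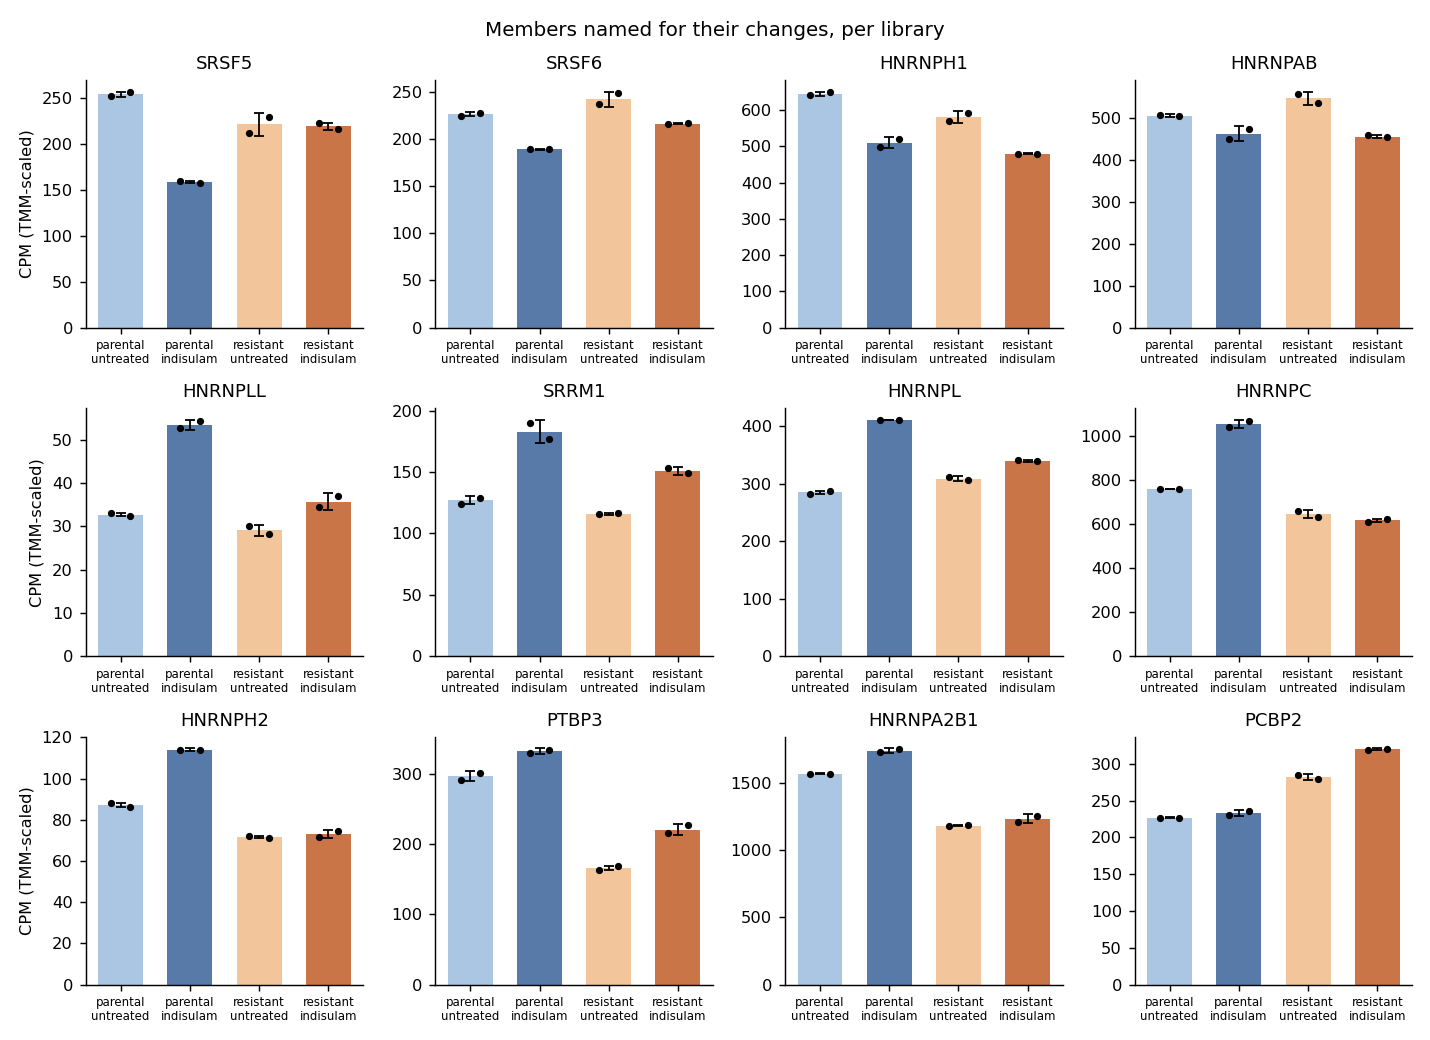
CPM of 12 named splicing regulators in each library. Bars are group means with SD of 2 libraries, dots are single libraries, and each axis starts at 0. The parental indisulam bar is the lowest for SRSF5 (158 CPM) and the highest for HNRNPC (1055 CPM), and both resistant bars of PTBP3 (166 and 221 CPM) lie below the parental ones.

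Next, the lines were compared without drug. Resistant cells had less of most hnRNP transcripts, PTBP3 and HNRNPA2B1 above all, and more PCBP2. Of 41 members 22 were called lower, 8 higher and 11 were not called, which is 30 called against 60.1% of all genes (30.3% higher and 29.9% lower) and 72.3% of the genes of at least 30 CPM (38.3% higher and 34.0% lower). The median log2 fold change was -0.08 over the members and 0.02 over the genes of at least 30 CPM. Of the 25 hnRNP, PTBP and PCBP genes 15 were lower and 4 higher, and of the 16 SR and SR-related genes 7 were lower and 4 higher. PTBP3 alone was called against a null of 0.5 log2 units. Leaving out either parental untreated library left 25 calls, and 7 calls (SRSF1, SRSF2, SRSF6, SRSF11, SRRM1, HNRNPDL and HNRNPR, each at most 0.12 in size) were lost without some library.

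PTBP3 was lower in resistant untreated cells by 0.84 on the log2 scale, a fold change of 0.561 (-0.84 ± 0.030, adjusted p = 3.4e-17, edgeR), the largest difference of any member in any comparison. HNRNPA2B1, a reader and sorter of RNA that binds purine-rich motifs, had 1564 and 1569 CPM in parental untreated, 1727 and 1752 CPM in parental indisulam, 1178 and 1185 CPM in resistant untreated and 1213 and 1257 CPM in resistant indisulam libraries. All 4 resistant libraries lay below all 4 parental ones, and the difference off the drug was -0.41 ± 0.028 (adjusted p = 9.1e-12, edgeR). HNRNPM, a repressor at GU-rich sites known from epithelial and mesenchymal splicing, had 372 and 373 CPM in parental untreated, 431 and 441 CPM in parental indisulam, 290 and 294 CPM in resistant untreated and 306 and 309 CPM in resistant indisulam libraries. Its lines were likewise apart, by -0.35 ± 0.027 off the drug (adjusted p = 4.7e-11, edgeR). TRA2A and SRSF4 were lower by 0.30 and 0.29 and HNRNPH2 by 0.28.

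The members called higher in resistant untreated cells were 8, against 22 called lower, and PCBP2 differed the most of the 8. PCBP2 had 226 and 227 CPM in parental untreated, 230 and 236 CPM in parental indisulam, 285 and 279 CPM in resistant untreated and 319 and 320 CPM in resistant indisulam libraries. All resistant libraries were above all parental ones, and the difference off the drug was 0.31 ± 0.027 (adjusted p = 4.7e-10, edgeR). SRSF8 had 47.7 and 49.1 CPM in parental untreated, 69.0 and 68.6 CPM in parental indisulam, 57.7 and 53.2 CPM in resistant untreated and 63.0 and 62.2 CPM in resistant indisulam libraries. It was higher by 0.20 ± 0.036 in resistant cells off the drug (adjusted p = 5.8e-05, edgeR). On the drug it was at -0.14, a call that was lost with library totals alone (-0.05, adjusted p = 0.21). SRSF10 had 133 and 132 CPM in parental untreated, 139 and 139 CPM in parental indisulam, 142 and 145 CPM in resistant untreated and 135 and 133 CPM in resistant indisulam libraries. These values span a narrow range, and the difference off the drug was 0.12 ± 0.028 (adjusted p = 0.00077, edgeR).

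On the drug the lines were further apart. Resistant cells had less of 32 members, HNRNPC, HNRNPH2 and PTBP3 the most, and more SRSF5, PCBP2 and SRSF6. With 6 members not called, 35 of 41 were called, against 69.5% of all genes (34.6% higher and 34.9% lower) and 82.8% of the genes of at least 30 CPM (26.8% higher and 56.1% lower). The median was -0.23 over the members and -0.12 over the genes of at least 30 CPM. Against a null of 0.5 log2 units 4 members were called, all lower: HNRNPC, HNRNPH2, PTBP3 and HNRNPLL. The calls of 4 members (SRSF9, TRA2B, HNRNPH1 and HNRNPUL1) were lost without some library. With library totals alone those of SRSF8 and HNRNPA3 were lost, and TRA2B and HNRNPUL1 changed sign. This comparison and the one off the drug share no libraries, but each shares a group with the drug responses above.

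HNRNPC was at a fold of 0.584 in resistant against parental cells on the drug (-0.78 ± 0.029 on the log2 scale, adjusted p = 5.6e-17, edgeR), with no overlap of the 661 or fewer CPM of resistant libraries and the 760 or more CPM of parental ones. HNRNPH2 was at -0.64 ± 0.030 (adjusted p = 5.2e-15, edgeR) and PTBP3 at -0.59 ± 0.030 (adjusted p = 2e-14, edgeR). HNRNPLL, HNRNPM, HNRNPA2B1 and TRA2A were lower by between 0.49 and 0.58. All 4 members each of the hnRNP C, M, R and Q, the hnRNP F/H and the hnRNP L and PTBP groups were called lower. So were 56.1% of the genes of at least 30 CPM. HNRNPH1 (-0.09) changed the least of these members, and its call was lost with library totals alone (-0.0, adjusted p = 0.89, edgeR).

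SRSF5 was higher in resistant cells on the drug by 0.47 ± 0.032 (adjusted p = 1e-11, edgeR), whereas off the drug it was lower by 0.20. PCBP2 was higher by 0.46 ± 0.027 (adjusted p = 3.5e-13, edgeR) and SRSF6 by 0.19 ± 0.029 (adjusted p = 2e-06, edgeR). Over all 5 comparisons, 12 members were called in each, among them SRSF1, SRSF4, HNRNPC, HNRNPL, HNRNPLL and PTBP3. Some of these calls were not stable. That of SRSF1 off the drug (-0.07) passed in 5 of 14 alternatives and that of HNRNPC in resistant cells (-0.07) in 4 of 14. For SRSF4 the difference of the responses (-0.15) passed in 9 of 13. SRRM2, HNRNPA1, HNRNPU and HNRNPUL2 were called in none. Calls over all 5 comparisons were not counted for other genes. Of the genes of at least 30 CPM, between 66.4% and 82.8% were called in each single comparison.

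**Figure D5:**
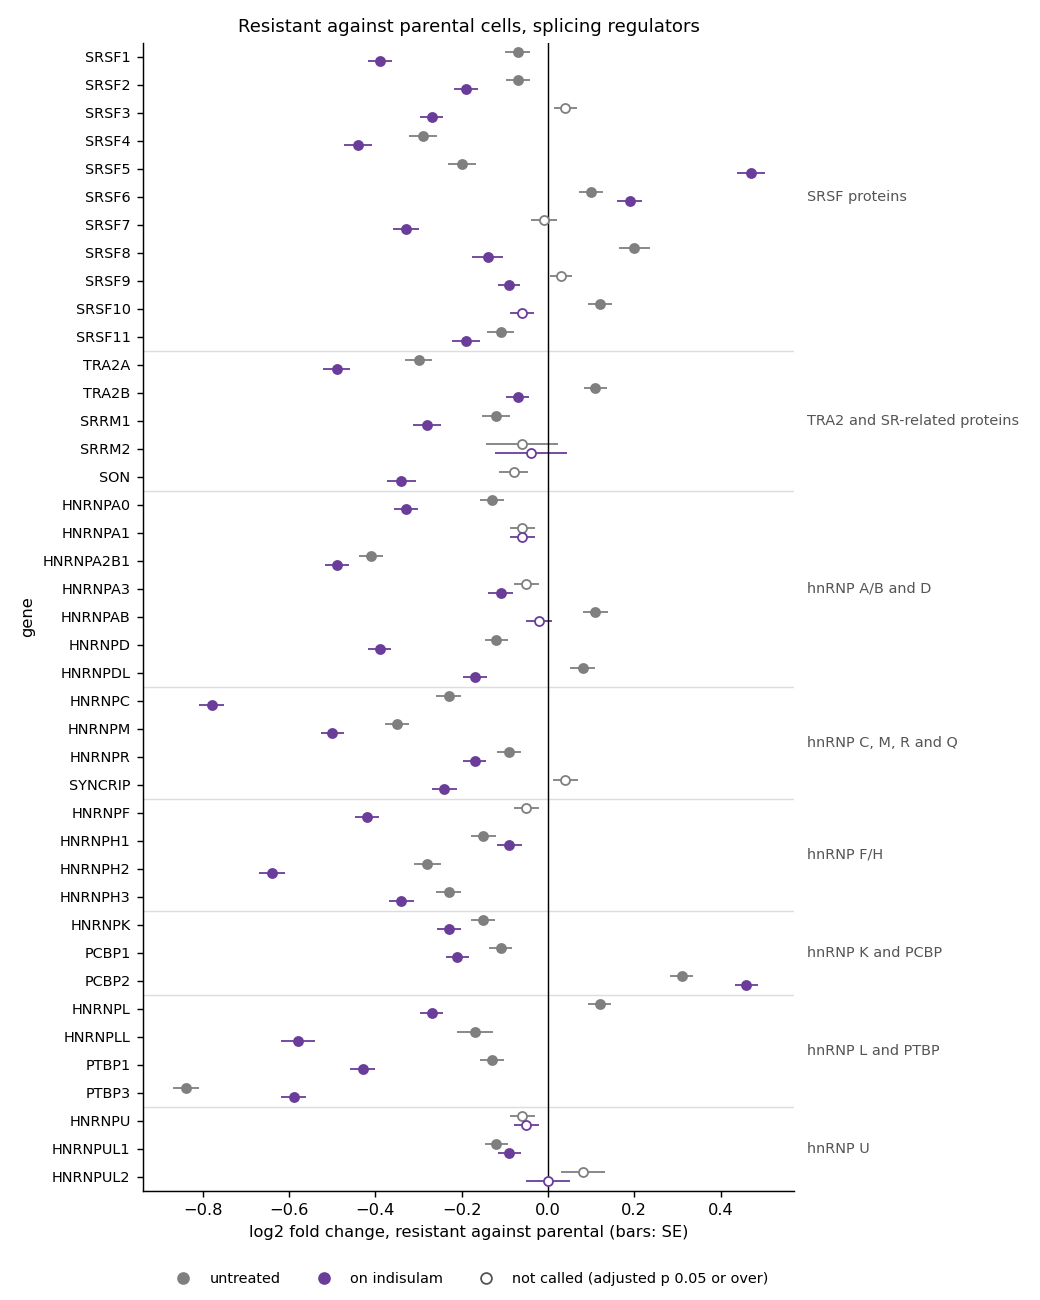
log2 fold change with SE of each tested splicing regulator, resistant against parental cells, untreated (grey) and on indisulam (purple), grouped by family. Open circles did not pass an adjusted p of 0.05. PTBP3 is the lowest grey point at -0.84 and HNRNPC the lowest purple point at -0.78, whereas SRSF5 moves from -0.20 off the drug to 0.47 on it.

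Counts per gene add the coding and the decay-prone transcripts of a gene. In GENCODE release 44, 33 of the 41 tested members have an annotated nonsense-mediated decay transcript, against 47.6% of the 12497 tested protein-coding genes. HNRNPA2B1 has 35 such transcripts of 49 annotated and HNRNPA1 has 18 of 84. HNRNPA0, HNRNPAB, HNRNPF, HNRNPH2, HNRNPH3, PCBP1, PTBP3 and HNRNPUL2 have 0. The protein-coding genes were not matched to the members in level or in number of annotated transcripts. These are entries in the annotation, and the use of single exons was not analysed here.

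The promoters of SRSF5, HNRNPLL, HNRNPC and PTBP3 are shown because these members had the largest fall, the largest rise, the largest difference on the drug and the largest difference off the drug. Each is the 250 bases before the RefSeq start on GRCh38.p14, written 5′ to 3′ on the strand of the gene, with capitals for letters of 6 motifs searched on both strands.
SRSF5, chr14:69766892-69767141, plus strand: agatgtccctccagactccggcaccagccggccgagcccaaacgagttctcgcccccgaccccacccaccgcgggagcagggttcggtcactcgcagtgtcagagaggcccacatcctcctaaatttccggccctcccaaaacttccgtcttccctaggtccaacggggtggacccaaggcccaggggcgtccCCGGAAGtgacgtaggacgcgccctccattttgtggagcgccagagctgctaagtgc
HNRNPLL, chr2:38602929-38603178, minus strand: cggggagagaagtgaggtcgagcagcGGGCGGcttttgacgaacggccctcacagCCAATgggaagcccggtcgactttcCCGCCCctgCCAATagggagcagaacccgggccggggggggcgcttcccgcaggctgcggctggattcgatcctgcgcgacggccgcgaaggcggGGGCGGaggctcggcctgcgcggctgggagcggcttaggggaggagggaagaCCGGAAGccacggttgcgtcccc
HNRNPC, chr14:21269443-21269692, minus strand: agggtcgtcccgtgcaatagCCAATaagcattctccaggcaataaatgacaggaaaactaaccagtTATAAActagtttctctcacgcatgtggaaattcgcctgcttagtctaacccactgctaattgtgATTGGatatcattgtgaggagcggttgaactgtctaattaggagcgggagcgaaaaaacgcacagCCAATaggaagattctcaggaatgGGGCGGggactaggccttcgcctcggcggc
PTBP3, chr9:112333027-112333276, minus strand: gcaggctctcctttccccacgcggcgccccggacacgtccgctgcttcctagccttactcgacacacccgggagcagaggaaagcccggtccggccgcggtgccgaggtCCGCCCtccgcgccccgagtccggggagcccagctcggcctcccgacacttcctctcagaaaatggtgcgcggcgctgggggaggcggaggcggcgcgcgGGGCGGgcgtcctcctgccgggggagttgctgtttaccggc

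The motifs were the GC box GGGCGG, the CCAAT box CCAAT, the ETS motif CCGGAAG, the TATA box TATAAA and the palindromic motifs of NRF1 and ZBTB33. Capitals that spell other letters are the reverse complement of a motif, and no matches overlapped in these 4 windows. SRSF5 held 1 match, an ETS motif 57 bases before the start. HNRNPLL held 6 matches, 3 GC boxes, 2 CCAAT boxes and an ETS motif, and HNRNPC held 5, of which 3 were CCAAT boxes. PTBP3 held 2 GC boxes, and its window was the richest of the 4 in G and C, with 73.6% against 48.4% in HNRNPC.

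Of the 42 members 39 were in the RefSeq promoter table, with 56 windows. Searched over each window as stored, the GC box was in 62.5% of the member windows and in 45.0% of all 35116 windows, and CCAAT in 44.6% and 34.6%. For the ETS motif these shares were 14.3% and 10.3%, and for the TATA box 10.7% and 11.5%. No member window held the NRF1 motif, found in 1.24% of all windows. The ZBTB33 motif was in 3 member windows, those of HNRNPH3, HNRNPK and SRSF10, or 5.36% against 0.424%. Member windows had a median G and C content of 65.6% and all windows 58.0%. A match describes letters alone, and several windows can belong to the same gene.

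Other genes that act with the members were taken from 3 lists, the SR protein kinases and importers, other arginine-serine rich cofactors, and other RNA-binding splicing regulators. Of 76 listed genes 66 were tested. In parental cells given indisulam 36 of the 66 rose and 17 fell, or 80.3% called against 77.6% of the genes of at least 30 CPM and 58.2% of all genes. In resistant cells 25 rose and 13 fell, or 57.6% against 66.4% and 50.7%. Resistant cells had 17 of them higher and 34 lower off the drug (77.3% against 72.3% and 60.1%), and 12 higher and 31 lower on it (65.2% against 82.8% and 69.5%). The difference of the responses called 18 higher and 25 lower, or 65.2% against 67.8% and 50.1%. The share called was furthest from that of abundant genes between the lines on the drug (65.2% against 82.8%) and closer to it in the other comparisons. Some of the 66 genes lie under 30 CPM, so the sets are not matched in level. These shares are not read as a trait of the lists. The median changes over the 66, in this order, were 0.09, 0.02, -0.08, -0.03 and -0.06.

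RBM39, the target of the drug, was the pathway gene with the largest rise in both lines. It rose from 334 ± 3.25 to 724 ± 10.7 CPM in parental cells (SD, n = 2), by 1.11 ± 0.029 on the log2 scale (adjusted p = 4.9e-18, edgeR), and from 305 ± 8.58 to 584 ± 9.62 CPM in resistant cells, by 0.94 ± 0.029. No member rose as much. CLK2, a kinase of SR proteins, fell the most in parental cells, by 0.89 from 41.9 ± 1.34 to 22.7 ± 0.659 CPM, and by 0.20 in resistant cells, a difference of 0.69 ± 0.10 (adjusted p = 0.00051, edgeR). ARGLU1, an arginine and glutamate rich cofactor, fell by 0.49 in parental cells and LUC7L, a homolog of a yeast U1 snRNP protein, rose by 0.51. Like SRSF5, ARGLU1 hardly changed in resistant cells (-0.04), a difference from the parental response of 0.46 ± 0.059 (adjusted p = 8.7e-06, edgeR).

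In resistant cells RBMX, which binds m6A-marked RNA, fell by 0.32 on the drug, while RSRP1 rose by 0.50. Off the drug KHSRP, which promotes RNA decay and microRNA processing, was lower in resistant cells by 0.47 and RSRP1 by 0.47. SREK1IP1 was higher by 0.65 and MBNL2, a muscleblind protein, by 0.54. On the drug SRPK2, a cytoplasmic SR protein kinase, was lower by 0.55 and TNPO3, the importer that carries phosphorylated SR proteins into the nucleus, by 0.54, with PCBP4 higher by 0.62. U2AF1 was higher by 0.58 there, but its group means of at most 4.04 CPM are uncertain, since GRCh38 holds a near-identical copy of the gene. The difference of the responses was lowest for MBNL2 (-0.45) and RBMX (-0.44) and highest for U2AF1 (0.72) and CLK2 (0.69).

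Several members overlap other genes, so their counts depend on counting rules that are not given in the sources used here. On the opposite strand, PCBP1-AS1 covers 73.19% of the exon bases of PCBP1, NFE2L2 53.65% of those of HNRNPA3 and GATC 43.59% of those of SRSF9. HNRNPUL2 shares 44.27% of its exon bases with a readthrough gene on its own strand, and SRSF1 and SYNCRIP share 32.69% and 27.1% with unnamed genes, all of them listed at 0 reads. Pseudogenes named after HNRNPA1 numbered 74 and held 0.836% of their joint reads, the largest share of any member, followed by HNRNPA3 with 0.691% and HNRNPC with 0.476%. SRSF8 and SRSF2, and HNRNPH1 and HNRNPH2, are close in sequence, and a split of reads between them is possible.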

How the data were processed

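The authors deposited raw read counts per gene for each of the 8 libraries. Per the labels and the methods of the study, stranded libraries of polyadenylated RNA were sequenced in paired ends, trimmed with SeqPurge and aligned with HISAT2 2.2.1 to GRCh38. Picard and HTSeq are named in the submitters' processing notes without version. The annotation release and strand setting are not given in the sources used here. The 9 lines of each file that name no gene, among them 14.07% to 18.43% of all reads marked as duplicates, were left out. Symbols, exons and positions came from GENCODE release 44, which matched 60419 of the 60675 identifiers. Counts were tested in edgeR 4.0.16 (R 4.3.3; filterByExpr, TMM scaling, robust quasi-likelihood fit of 4 group means on all 8 libraries). P-values were adjusted by Benjamini-Hochberg over all 16661 genes tested, in each of 5 comparisons, and called under 0.05. SE is the log2 fold change divided by the square root of F. The code was tested on simulated counts. The members and lists were chosen with earlier results of these data known.

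Values in every library are given for the called members with the 3 largest rises and the 3 largest falls in each comparison of groups, and for the 5 highest and 5 lowest levels per kilobase. In each comparison the 2 pathway genes that rose most and the 2 that fell most are named, except for 1 value that is not reported here. MATR3 was not used because its symbol has 2 identifiers. Alternatives were DESeq2 1.42.0 size factors and its Wald test, library totals alone, no filter, a glmTreat test against 0.5 log2 units, the replicate number as a block, a fit of the groups compared alone, and each library left out in turn. The length of the canonical transcript was added after the data had been seen. Promoter windows came from RefSeq. Plots used matplotlib 3.10.9 (Python 3.11.15).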

Additional observations from a re-analysis of the deposited data

Results flagged for a closer look

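The responses of 29 members to indisulam differed between the lines by the edgeR test of the difference itself (resistant minus parental, log2 units, adjusted p under 0.05). Length of exposure and the drug holiday also differed between the lines and cannot be told apart from the line here. Among all genes tested 50.1% were called in this test, and of the genes with a mean of at least 30 CPM 67.8%. The signed difference was positive for SRSF5 (0.67), whose fall in parental cells was not seen in resistant cells, and for PTBP3 (0.25) and PCBP2 (0.14). It was negative by at least 0.30 for HNRNPC (-0.54), HNRNPLL (-0.41), HNRNPL (-0.39), HNRNPF (-0.37), HNRNPH2 (-0.36), SRSF8 (-0.33), SRSF7 (-0.32), SRSF1 (-0.32), SRSF3 (-0.31) and PTBP1 (-0.30). It was negative by a smaller amount for SYNCRIP (-0.28), HNRNPD (-0.27), SON (-0.26), HNRNPDL (-0.25) and HNRNPA0 (-0.20). Differences under 0.20 in size were called for TRA2A (-0.19), SRSF10 (-0.18), TRA2B (-0.17), SRRM1 (-0.16), HNRNPM (-0.15), SRSF4 (-0.15), HNRNPAB (-0.13), SRSF2 (-0.12), SRSF9 (-0.12), HNRNPH3 (-0.11) and PCBP1 (-0.10).

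With library totals alone as the scaling HNRNPH3 and PCBP1 changed sign in this test. The calls of SRSF2, SRSF4, SRSF9, SRRM1, HNRNPAB, HNRNPH3 and PCBP1 were lost when some library was left out. Those of SRSF10, TRA2A, TRA2B, HNRNPA0 and HNRNPM were lost with library totals alone, where their differences lay between -0.04 and -0.09.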

How the results depend on the processing

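The called members that changed direction did so with library totals alone: TRA2B and HNRNPUL1 between the lines on the drug, and HNRNPH3 and PCBP1 in the difference of the responses. The counts of called members moved by over 1.5 times in the glmTreat test against 0.5 log2 units alone, which called 2 members in parental cells given indisulam, 0 in resistant cells given indisulam, 1 between the lines off the drug, 4 on it and 1 in the difference of the responses, in place of 33, 26, 30, 35 and 29. Fewer calls follow from that null itself, since most changes were under 0.5. With 1 library left out the counts ranged from 32 to 34, 21 to 26, 25 to 32, 32 to 34 and 22 to 27. With library totals alone they were 34, 30, 34, 30 and 22. In the last of these the split was 8 higher and 14 lower in place of 3 and 26, and the cause was not tested. The median level of the tested members was 44.6 CPM per kilobase of merged exons and 95.9 per kilobase of canonical transcript.

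The titles number the libraries 1 and 2 in each group. Deviations of same-numbered libraries from their group means, over all genes tested, correlated between -0.058 and 0.027. No pairing by number was seen, but this cannot show that same-numbered libraries were prepared apart. The fit with the replicate block called 34, 26, 31, 35 and 29 members. With 2 libraries a group, small changes such as those of SRSF10 are at the limit of what can be called.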
